A study of Mus musculus with 69 samples.

Results

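The transcription factors by which the intermediate mesoderm is commonly recognised, Pax2, Pax8, Osr1, Wt1, Lhx1 and Gata3, were followed through mosaic mouse gastruloids. These 6 genes were chosen by gene symbol, and each of the 6 had 1 row in a count table of 55367 gene symbols. Gastruloids are aggregates of mouse embryonic stem (mES) cells that form parts of the embryonic body plan, and the study asked what happens to wild-type (WT) cells that develop beside cells without p53. RNA was sequenced in 69 libraries, 3 for each of 23 groups, from cells sorted out of gastruloids and, at 0 h, from mES cells not labelled as sorted.

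All cells came from the E14Tg2A mES line kept in serum and LIF, and gastruloids received a pulse of the Wnt pathway activator Chir between 48 and 72 h. WT–mCherry is a single-cell clone with an H2B–mCherry reporter driven by the EF1α promoter, and WT–emiRFP is a single-cell clone with an H2B–emiRFP670 reporter driven by the CAG promoter. p53KO–emiRFP is 1 daughter clone of WT–emiRFP with a homozygous frameshift in Trp53, so loss of p53 and other properties of that clone cannot be told apart. WT + WT gastruloids were seeded with 150 WT–mCherry and 150 WT–emiRFP cells, and WT + p53KO gastruloids with 150 WT–mCherry and 25 p53KO–emiRFP cells. Both populations of each mosaic were sorted by fluorescence from pooled gastruloids at 48, 72, 96, 120 and 144 h after aggregation. The 3 clones as mES cells stand for 0 h. The genotype comparison therefore also differs in seeding number and in the partner cells from 48 h on, which cannot be told apart from genotype. In sorted bulk RNA, fewer cells of a type and less RNA per cell cannot be told apart either, nor can it be said whether the 6 factors were made by the same cells.

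The intermediate mesoderm lies between the somite-forming paraxial mesoderm and the lateral plate, and gives rise to kidneys, gonads and their ducts. Osr1, a zinc finger factor, is among its earliest markers and is shared with the lateral plate. Lhx1, a LIM homeodomain factor, acts first in the anterior mesendoderm and later in the nephric duct lineage, where the paired box factors Pax2 and Pax8 act partly redundantly upstream of Gata3. Wt1, a zinc finger factor, is needed in the nephrogenic mesenchyme and is also made in coelomic epithelium and gonad. None of the 6 is restricted to this tissue: Pax2 and Lhx1 are also made in spinal interneurons, Pax2 at the midbrain–hindbrain boundary and with Pax8 in the otic placode, and Gata3 in trophoblast, otic and surface ectoderm.

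In the mouse genome build GRCm38, Pax2 spans chr19:44756045-44837871 on the plus strand, and Osr1 spans chr12:9570116-9581500 and Wt1 chr2:105126529-105173616, also on the plus strand. Pax8 at chr2:24420560-24475599, Lhx1 at chr11:84518284-84525535 and Gata3 at chr2:9857078-9890034 lie on the minus strand. All 6 are annotated as protein-coding, with a summed exon length from 2066 bp for Osr1 to 6195 bp for Wt1, and reads are counted over these exons. A divergent non-coding gene starts 125 bp from the start of Lhx1 (Lhx1os) and another 19 bp from the start of Wt1 (Wt1os). The gene 4930412O13Rik lies antisense within the span of Gata3, and had at most 9 reads in any library. Which strand the deposited counts refer to is not given in the sources used here, so reads of overlapping genes on opposite strands cannot be assigned with certainty.

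Promoter windows of 300 bases (250 before and 50 after the start) from RefSeq, build GRCm38.p6, matched 4 of the 6 genes. Lhx1 and Pax2 are shown because at 120 and 144 h they were most above their WT–emiRFP level in p53KO–emiRFP cells, and Pax8 because it was below that level at 144 h. The Lhx1 window is chr11:84525485-84525784 on the minus strand, with capitals for the bases between its start and that of Lhx1os. The Pax2 window, the one of 3 nearest to the annotated gene start, is chr19:44755502-44755801 on the plus strand. The Pax8 window is chr2:24475550-24475849 on the minus strand, with capitals for a CCAAT box.
Lhx1: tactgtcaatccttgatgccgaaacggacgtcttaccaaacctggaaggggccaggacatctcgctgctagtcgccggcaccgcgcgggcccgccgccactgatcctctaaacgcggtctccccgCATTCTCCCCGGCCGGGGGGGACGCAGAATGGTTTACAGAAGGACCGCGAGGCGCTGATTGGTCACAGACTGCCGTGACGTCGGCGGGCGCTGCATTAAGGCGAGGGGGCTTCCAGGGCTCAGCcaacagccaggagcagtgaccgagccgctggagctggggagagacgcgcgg
Pax2: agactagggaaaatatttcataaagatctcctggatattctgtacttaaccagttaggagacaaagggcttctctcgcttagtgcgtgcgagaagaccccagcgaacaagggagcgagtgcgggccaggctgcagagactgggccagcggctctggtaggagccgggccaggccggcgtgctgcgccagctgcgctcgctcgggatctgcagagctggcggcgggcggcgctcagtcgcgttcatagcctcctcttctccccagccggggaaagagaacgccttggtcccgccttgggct
Pax8: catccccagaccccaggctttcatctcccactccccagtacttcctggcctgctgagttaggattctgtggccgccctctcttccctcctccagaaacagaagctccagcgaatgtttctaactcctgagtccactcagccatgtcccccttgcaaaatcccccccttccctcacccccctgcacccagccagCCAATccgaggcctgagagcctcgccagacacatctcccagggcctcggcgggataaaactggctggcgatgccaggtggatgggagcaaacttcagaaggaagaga
G and C made up 65.7% of the Lhx1, 61.7% of the Pax2 and 59.3% of the Pax8 window. The windows were searched on both strands for the letters CCAAT (the CCAAT box), then for TATAAA (the TATA box), for AGGTCA (a nuclear receptor half-site) and for CTTTGA (a TCF/LEF core), and the matches found did not overlap each other. CCAAT was found in Pax8 at -57 and, on the opposite strand, in Lhx1 at -68, within the capitals. It is present in 37.4% of all 32851 windows of this length. None of the other motifs was in the 6 windows of the 4 genes, and they are in 13.6%, 16.3% and 16.0% of all windows. A match of letters is a description, not a binding site.

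Library totals ranged from 26722541 to 72981570 counts, and levels below are counts divided by size factors (normalized counts). Trp53 checked the genotype labels: it lay between 1506 and 2589 normalized counts in the 18 p53KO–emiRFP libraries and between 13902 and 27510.5 in the 51 WT libraries. The p53KO–emiRFP mean was 8.33% to 11.4% of the WT–emiRFP mean, so transcripts remained at every time point, and no library went against its genotype label. The labels of clone among WT libraries, of neighbours and of time are not checked by Trp53.

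The question of the time course was when each factor appears in WT cells. There were 3 patterns. Osr1, Lhx1 and Pax2 were low up to 72 h and peaked at 96 or 120 h. Wt1 was highest at 48 h and Pax8 at 0 and 48 h, and both fell at 72 h and returned late. Gata3 was present in mES cells, almost gone at 48 and 72 h, and highest at 144 h.

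Osr1 had no read in any of the 9 mES libraries. A count of 0 allows up to 3 reads, or 0.0411 CPM (counts scaled to the library total) in the largest and 0.112 CPM in the smallest library, for counting error only. At 48 and 72 h the WT libraries held 0 to 2 reads each and the p53KO–emiRFP libraries 0 to 3. The gene was clearly present from 96 h, when the 9 WT libraries ranged from 16.7 to 77.2 (median 44.6) normalized counts. They held 52.7 to 119.8 (median 84.0) at 120 h and 5.22 to 28.0 (median 17.2) at 144 h. The rise from 72 to 96 h (adjusted p = 9.3e-18), the rise to 120 h (log2 fold change 1.01 ± 0.18, SE, adjusted p = 2.9e-06) and the fall to 144 h (-2.38 ± 0.20, adjusted p = 2.1e-14) each passed the test, edgeR's quasi-likelihood test with Benjamini-Hochberg adjustment over all genes at 0.05. These steps are means over the 3 WT populations, which differed from 96 to 120 h: WT–emiRFP cells went from 70.2 ± 8.11 to 73.3 ± 22.6 normalized counts (SD, n = 3), within their spread. WT–mCherry cells went from 40.8 ± 13.6 to 71.0 ± 13.1 beside WT and from 22.6 ± 8.45 to 104 ± 17.1 beside p53KO cells. No fold is given for the first rise of Osr1, because the earlier libraries are at or near 0.

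Lhx1 had a single sharp peak. In WT libraries its normalized counts ranged from 2.07 to 11.7 (median 5.23) at 0 h, 13.3 to 23.8 (median 20.2) at 48 h and 35.7 to 121 (median 60.5) at 72 h. At 96 h they reached 1354 to 2595 (median 1770.4). They then dropped to 276 to 703 (median 410.3) at 120 h and 23.5 to 113 (median 56.0) at 144 h. The ranges at 72, 96, 120 and 144 h did not overlap except for those of 72 and 144 h. The rise from 72 to 96 h, 4.94 ± 0.12 on the log2 scale (adjusted p = 3.9e-40), was the largest fitted rise of the 6 genes with measurable earlier levels. The fall was -2.10 ± 0.09 from 96 to 120 h and -2.98 ± 0.12 from 120 to 144 h (adjusted p = 7.2e-27 and 6.2e-29).

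Pax2, the paired box factor of the nephric lineage, also peaked at 96 h in WT cells but, unlike Lhx1, did not rise before it. WT libraries ranged from 14.5 to 35.5 (median 21.7) normalized counts in mES cells, 11.4 to 26.5 (median 14.5) at 48 h and 6.49 to 17.1 (median 10.9) at 72 h, so the early ranges overlapped. At 96 h they ranged from 73.2 to 203 (median 121), at 120 h from 42.5 to 136 (median 64.4) and at 144 h from 17.4 to 67.0 (median 36.4). The step to 96 h was 3.41 ± 0.19 (adjusted p = 2.7e-23), and both later steps were falls, -0.81 ± 0.14 and -0.90 ± 0.16 (adjusted p = 2.3e-06 and 3e-06), as means over the WT populations. At 96 and 120 h the WT–emiRFP means were 153 ± 43.5 and 52.4 ± 8.57 normalized counts, and the WT–mCherry means beside WT cells 136 ± 24.4 and 74.1 ± 8.64 (SD, n = 3). Beside p53KO cells the WT–mCherry means were the same at both times, 99.3 ± 23.6 and 99.3 ± 37.2. A small fall from 0 to 48 h (-0.62 ± 0.24, adjusted p = 0.021) did not pass without replicate 1 of every group (adjusted p = 0.31).

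Wt1 behaved in the opposite way early on. It stood at 168 to 245 (median 199) normalized counts in WT mES libraries and at 1271 to 1514 (median 1410.5) at 48 h, before the Chir pulse, with no overlap. It fell to 88.6 to 148 (median 127) at 72 h and 37.4 to 69.3 (median 53.4) at 96 h, and returned to 106 to 401 (median 239) at 120 h and 146 to 539.9 (median 331) at 144 h. All 5 steps passed the test: 2.79 ± 0.12, -3.54 ± 0.10, -1.25 ± 0.13, 2.11 ± 0.12 and 0.47 ± 0.10 on the log2 scale, with a highest adjusted p of 5.1e-05. The last step is a mean over populations that differed. WT–emiRFP cells had 339 ± 55.6 normalized counts at 120 h and 327 ± 20.4 at 144 h (SD, n = 3), while WT–mCherry cells went from 279 ± 87.2 to 441 ± 88.1 beside WT and from 115 ± 8.51 to 202 ± 48.5 beside p53KO cells. The highest level of Wt1 in the series was thus in 48 h aggregates, where Osr1 was at 0 to 2 reads and Lhx1 below 24 normalized counts in WT libraries.

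Pax8 shared the early shape of Wt1. In WT libraries it ranged from 87.8 to 165 (median 122) normalized counts at 0 h and 104 to 209 (median 151) at 48 h to 16.4 to 34.3 (median 24.6) at 72 h and 15.7 to 35.5 (median 26.6) at 96 h. It climbed back to 23.4 to 60.6 (median 38.3) at 120 h and 47.0 to 114 (median 73.2) at 144 h. The drop from 48 to 72 h was -2.60 ± 0.14 (adjusted p = 3.4e-23), and the later rises were 0.66 ± 0.16 and 0.89 ± 0.14 (adjusted p = 0.00027 and 1.5e-07). Over the same WT populations its partner Pax2 gave falls at both of these late steps. The rise of Pax8 from 0 to 48 h (0.31 ± 0.14, adjusted p = 0.036) was lost without replicate 1 or 2 of every group (adjusted p = 0.18 and 0.23), and from 72 to 96 h it did not pass (0.07 ± 0.17, adjusted p = 0.76).

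Gata3 held 88.0 to 234 (median 146) normalized counts in WT mES libraries and only 3.10 to 13.2 (median 7.73) at 48 h and 4.46 to 15.8 (median 11.2) at 72 h. It rose to 15.3 to 30.5 (median 25.8) at 96 h, 105 to 156 (median 124) at 120 h and 229 to 275 (median 257) at 144 h. The 144 h WT libraries were close together, within a range narrower than at any earlier time relative to its level. The fall on leaving the mES state was -4.34 ± 0.19 (adjusted p = 7.8e-28), and the 3 rises from 72 h on were 1.17 ± 0.21, 2.43 ± 0.15 and 0.99 ± 0.12, with a highest adjusted p of 3.1e-06.

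In all, 5, 3, 5, 6 and 6 of the 6 factors passed at the 5 consecutive WT steps. Over all genes tested, 70.3%, 66.8%, 58.7%, 56.9% and 55.5% passed, so steps of this kind moved most genes and the counts of the 6 are no sign of a particular response. In p53KO–emiRFP cells 5, 3, 4, 4 and 5 factors passed at the same steps, beside 59.5%, 46.4%, 44.6%, 35.0% and 22.7% of all genes. From 96 to 120 h, when Pax2 and Lhx1 fell in the mean over the WT populations, Pax2 rose in p53KO–emiRFP cells (0.65 ± 0.22, adjusted p = 0.017) and Lhx1 gave -0.10 ± 0.16 (adjusted p = 0.68). The WT–mCherry cells of the same gastruloids had the same Pax2 mean at both times, as given above. The rise of Pax2 was lost without replicate 1 or 2 of every group (adjusted p = 0.13 and 0.29). Of the other calls in p53KO–emiRFP cells, 4 depended on single replicates. Pax2 from 0 to 48 h was lost without replicate 2 (adjusted p = 0.097), Osr1 from 72 to 96 h without replicate 1 (0.062) and Wt1 from 96 to 120 h without replicate 3 (0.15). The fall of Osr1 from 120 to 144 h (-0.83 ± 0.30, adjusted p = 0.037) was lost whichever replicate was left out.

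**Figure D1:**
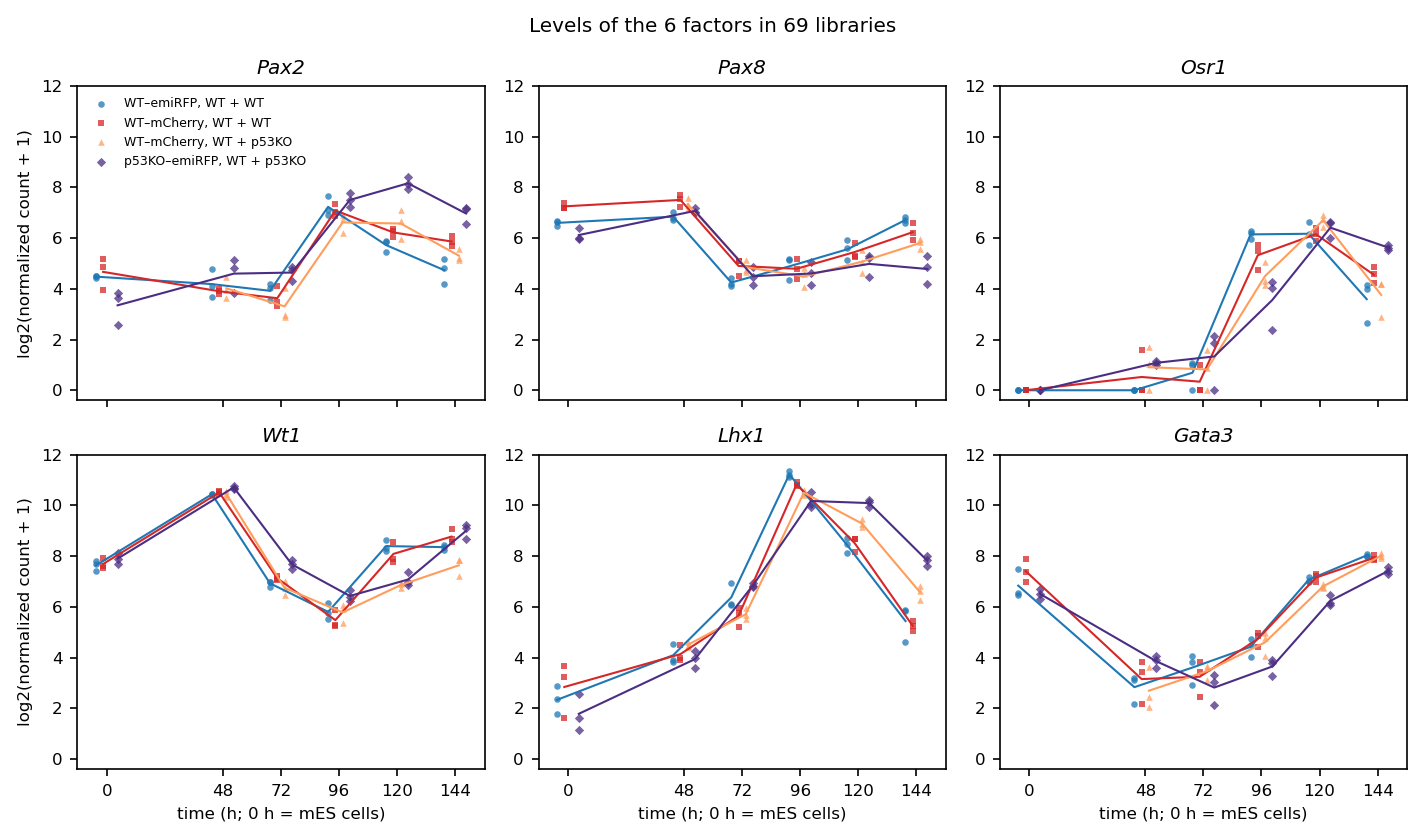
Normalized counts of the 6 factors in each of the 69 libraries, as log2(normalized count + 1) on the vertical axis against time in hours on the horizontal axis, with points of the 4 populations set slightly apart and lines through the mean log2 value of each population. Osr1, Lhx1 and Pax2 rise at 96 h, Wt1 is highest at 48 h, and the p53KO–emiRFP points leave the WT points for Pax2 and Lhx1 at 120 and 144 h.

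Over all 23 groups of libraries, ordered by their mean, most neighbours in the order overlapped in their ranges. Pax2 was led by p53KO–emiRFP cells at 120 h (288 ± 45.8 normalized counts, SD, n = 3), which overlapped no group ranked next, and the other 21 steps of its order overlapped. Lhx1 had the clearest order, with 8 of 22 steps without overlap, led by WT–emiRFP (2394 ± 180.3) and WT–mCherry cells in WT + WT gastruloids (1819 ± 95.6) at 96 h. Wt1 had 4 such steps, the first below p53KO–emiRFP cells at 48 h (1674.5 ± 72.6) and the next below the other 48 h groups, all 3 of which overlapped. Osr1 had 2, below its 5 highest groups and below WT–emiRFP cells at 144 h (12.3 ± 6.19). Gata3 also had 2, below WT–mCherry cells beside p53KO at 120 h (111 ± 6.67) and below p53KO–emiRFP cells at 120 h, and was led by the 3 WT groups at 144 h. Pax8 had none, and was led by WT–mCherry cells at 48 h (182.5 ± 29.6).

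Levels of different genes were compared per kb of exon. In WT–emiRFP cells Wt1 made up 88.9% of the summed level of the 6 factors at 48 h (224 normalized counts per kb), and Lhx1 made up 87.8% at 96 h (588 per kb). The leading factor thus changed from Wt1 to Lhx1 between these times. At 144 h Gata3 (41.5%) and Wt1 (33.5%) shared most of the sum. In p53KO–emiRFP cells Lhx1 still made up 65.6% of the sum at 120 h, against 37.7% in WT–emiRFP cells, and 23.9% at 144 h, against 7.12%. Pax2 had 53.2 per kb in p53KO–emiRFP and 9.68 per kb in WT–emiRFP cells at 120 h, and Gata3 18.8 and 33.5 per kb.

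**Figure D2:**
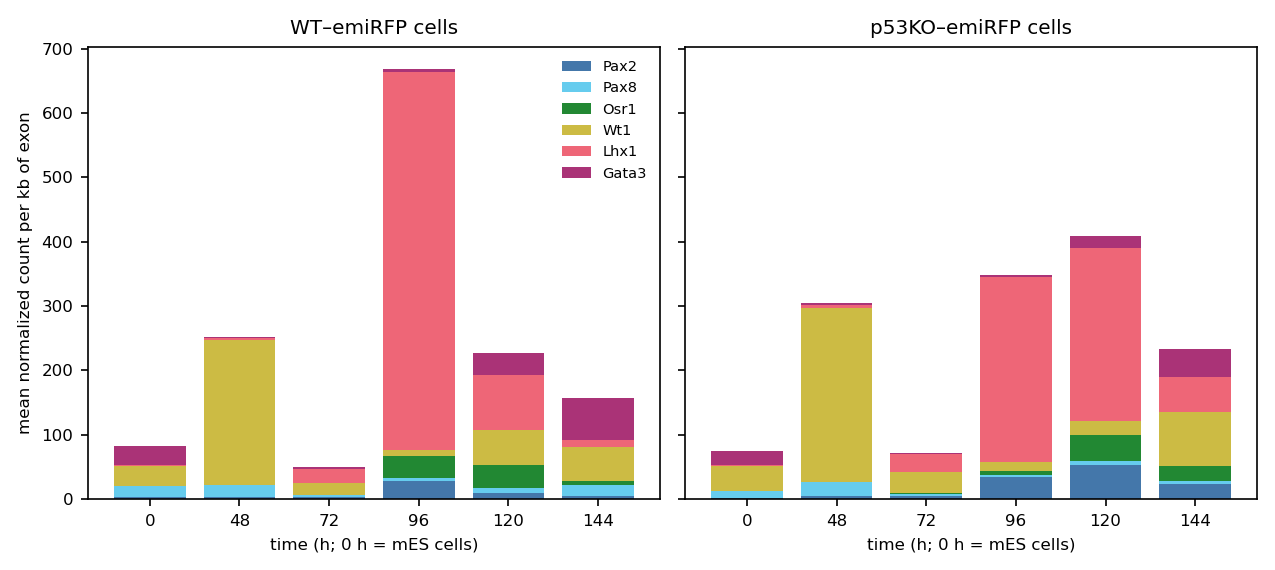
Mean level of the 6 factors in normalized counts per kb of exon (vertical axis, bars stacked by gene, 3 libraries per bar) against time in hours, in WT–emiRFP cells on the left and p53KO–emiRFP cells on the right. Wt1 fills most of the 48 h bars and Lhx1 most of the 96 h bars, and the Lhx1 part of the p53KO–emiRFP bar stays large at 120 h (268.6 per kb against 85.4 per kb in WT–emiRFP cells).

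The comparison of p53KO–emiRFP with WT–emiRFP cells asked how the 6 factors differed in cells without p53. Up to 72 h Wt1 alone passed. Osr1 and Lhx1 were lower at 96 h, and the differences became large in both directions at 120 and 144 h, with Pax2 and Lhx1 higher and Gata3 lower at both times. Of the factors tested, 0 of 4 passed at 0 h, 1 of 5 at 48 h, 1 of 5 at 72 h, 2 of 6 at 96 h, 4 of 6 at 120 h and 6 of 6 at 144 h. Over all genes the shares that passed were 6.14%, 22.1%, 29.1%, 23.3%, 51.0% and 65.4%. These shares and the counts of the 6 were both highest at 120 and 144 h. Genes not tested had too few reads, namely Osr1 up to 72 h and Lhx1 at 0 h. At 0 h 2 factors, Pax2 and Pax8, had an unadjusted p under 0.05, and DESeq2 called 0. With the replicate number as a block, 18 in place of 14 differences passed over all times, and the shares of all genes were 9.79%, 41.1%, 39.0%, 38.6%, 61.7% and 70.6%.

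Pax2 was the factor with the largest difference at 120 h. Its normalized counts were 283, 336 and 245 in p53KO–emiRFP and 56.5, 58.1 and 42.5 in WT–emiRFP libraries. Every p53KO–emiRFP library was above every other library of the same time, the highest of which, WT–mCherry beside p53KO, reached 136. The log2 fold change was 2.46 ± 0.24 (SE, 3 against 3, adjusted p = 1.4e-06). At 144 h the values were 142, 144 and 94.1 against 35.4, 27.2 and 17.4, a log2 fold change of 2.25 ± 0.25 (adjusted p = 2.6e-06). Earlier differences did not pass: -1.12 ± 0.39 at 0 h, where p53KO–emiRFP was the lower, 0.45 ± 0.36 at 48 h, 0.77 ± 0.34 at 72 h and 0.26 ± 0.21 at 96 h (adjusted p = 0.13, 0.41, 0.11 and 0.42).

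Lhx1 changed direction. At 96 h, the time of its peak, it was at 985, 1465 and 1067 normalized counts in p53KO–emiRFP and 2341, 2595 and 2247 in WT–emiRFP libraries, with no overlap, and the log2 fold change was -1.04 ± 0.11 (adjusted p = 1.5e-05). The WT–mCherry libraries of WT + p53KO gastruloids, at 1354, 1540 and 1455, overlapped the p53KO–emiRFP libraries at 96 h. At 120 h Lhx1 was at 969.7, 1173 and 1138 in p53KO–emiRFP against 416, 351 and 276 in WT–emiRFP libraries, 1.66 ± 0.16 on the log2 scale (adjusted p = 1.1e-06). The p53KO–emiRFP mean was thus 1172 ± 257 at 96 h and 1094 ± 109 at 120 h, while the WT–emiRFP mean went from 2394 ± 180.3 to 348 ± 69.7 (SD, n = 3). At 144 h the values were 230.0, 256.5 and 193 against 56.0, 57.5 and 23.5, 2.32 ± 0.26 (adjusted p = 2.8e-06). At 72 h 121, 110.3 and 112 stood against 121, 68.9 and 65.4, which did not pass (0.44 ± 0.22, adjusted p = 0.16) but did with the replicate number as a block (adjusted p = 0.049).

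Osr1, the early intermediate and lateral plate marker, was first the lower and last the higher in p53KO–emiRFP cells. At 96 h they held 15.4, 4.26 and 18.1 normalized counts and WT–emiRFP libraries 61.3, 77.2 and 72.1, with no overlap (-2.41 ± 0.35, adjusted p = 0.00019). The WT–mCherry libraries of WT + p53KO gastruloids, at 18.8, 16.7 and 32.3, overlapped the p53KO–emiRFP libraries at 96 h. The p53KO–emiRFP and WT–emiRFP groups overlapped at 120 h, with 63.4, 97.8 and 96.3 against 97.5, 69.8 and 52.7 (0.24 ± 0.24, adjusted p = 0.44). By 144 h the order was turned round, 51.7, 45.1 and 48.5 against 14.9, 16.7 and 5.22 (2.00 ± 0.37, adjusted p = 0.00032). From 96 h on these Osr1 values rest on 4 to 108 reads in p53KO–emiRFP libraries and 6 to 152 in WT libraries.

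Wt1 switched direction more than once. It was higher in p53KO–emiRFP cells at 48 h, 1755, 1613 and 1655 against 1384, 1375 and 1410.5 normalized counts (0.27 ± 0.06, adjusted p = 0.0065), and at 72 h, 231, 206 and 177 against 127, 126 and 110.2 (0.76 ± 0.14, adjusted p = 0.001). The 48 h difference is small and did not pass with all 69 libraries in 1 fit (adjusted p = 0.27) or without replicate 1 or 2 of each group (adjusted p = 0.092 and 0.061). At 96 h 83.0, 101 and 73.3 stood against 69.3, 53.4 and 44.3, which did not pass (0.61 ± 0.22, adjusted p = 0.065). It did with the replicate block (adjusted p = 0.0054), with no low-count filter (0.016) and with all 69 libraries in 1 fit (0.047). At 120 h the p53KO–emiRFP libraries were the lower, 127, 115 and 165 against 320.2, 295 and 401 (-1.32 ± 0.21, adjusted p = 9.8e-05). At 144 h they were again the higher, 591, 412 and 544 against 331, 304 and 344 (0.66 ± 0.18, adjusted p = 0.0058), and this last difference did not pass without replicate 1 of every group (adjusted p = 0.089). The WT–mCherry libraries of WT + WT gastruloids, at 413, 370.4 and 539.9, overlapped the p53KO–emiRFP libraries at 144 h. The p53KO–emiRFP means were thus 85.8 ± 14.1, 135 ± 25.9 and 516 ± 92.8 at 96, 120 and 144 h, with the larger step last, and the WT–emiRFP means 55.7 ± 12.7, 339 ± 55.6 and 327 ± 20.4 (SD, n = 3), with the larger step first.

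Gata3, downstream of Pax2 and Pax8 in the nephric duct, did not follow Pax2. It was lower in p53KO–emiRFP cells at 120 h, 70.5, 66.1 and 88.3 against 124, 145 and 130.3 normalized counts (-0.83 ± 0.15, adjusted p = 0.00033), and at 144 h, 168, 189 and 155 against 252, 269.8 and 259 (-0.61 ± 0.11, adjusted p = 0.00028). Neither pair of groups overlapped. At 96 h 13.8, 12.8 and 8.62 stood against 25.8, 15.3 and 21.6 (-0.83 ± 0.32, adjusted p = 0.083, with the replicate block 0.028). At 48 and 72 h, with means under 16 normalized counts, the differences were 1.06 ± 0.49 and -0.85 ± 0.47 (adjusted p = 0.14 and 0.2). At 0 h 103, 78.2 and 91.0 and 177, 93.0 and 88.0 normalized counts overlapped (-0.41 ± 0.29, adjusted p = 0.52).

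Pax8 also went against Pax2 late. At 144 h it was at 37.9, 28.1 and 17.5 normalized counts in p53KO–emiRFP and 96.1, 104 and 114 in WT–emiRFP libraries (-1.90 ± 0.25, adjusted p = 1.2e-05). From 120 to 144 h, when Pax8 rose in WT cells, its step in p53KO–emiRFP cells did not pass (-0.18 ± 0.28, adjusted p = 0.72). At 120 h 35.8, 38.1 and 21.1 overlapped 60.6, 47.5 and 34.2 (-0.57 ± 0.30, adjusted p = 0.13, with the replicate block 0.03). Up to 96 h no Pax8 difference passed, with log2 fold changes between -0.47 ± 0.18 at 0 h and 0.31 ± 0.29 at 72 h.

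**Figure D3:**
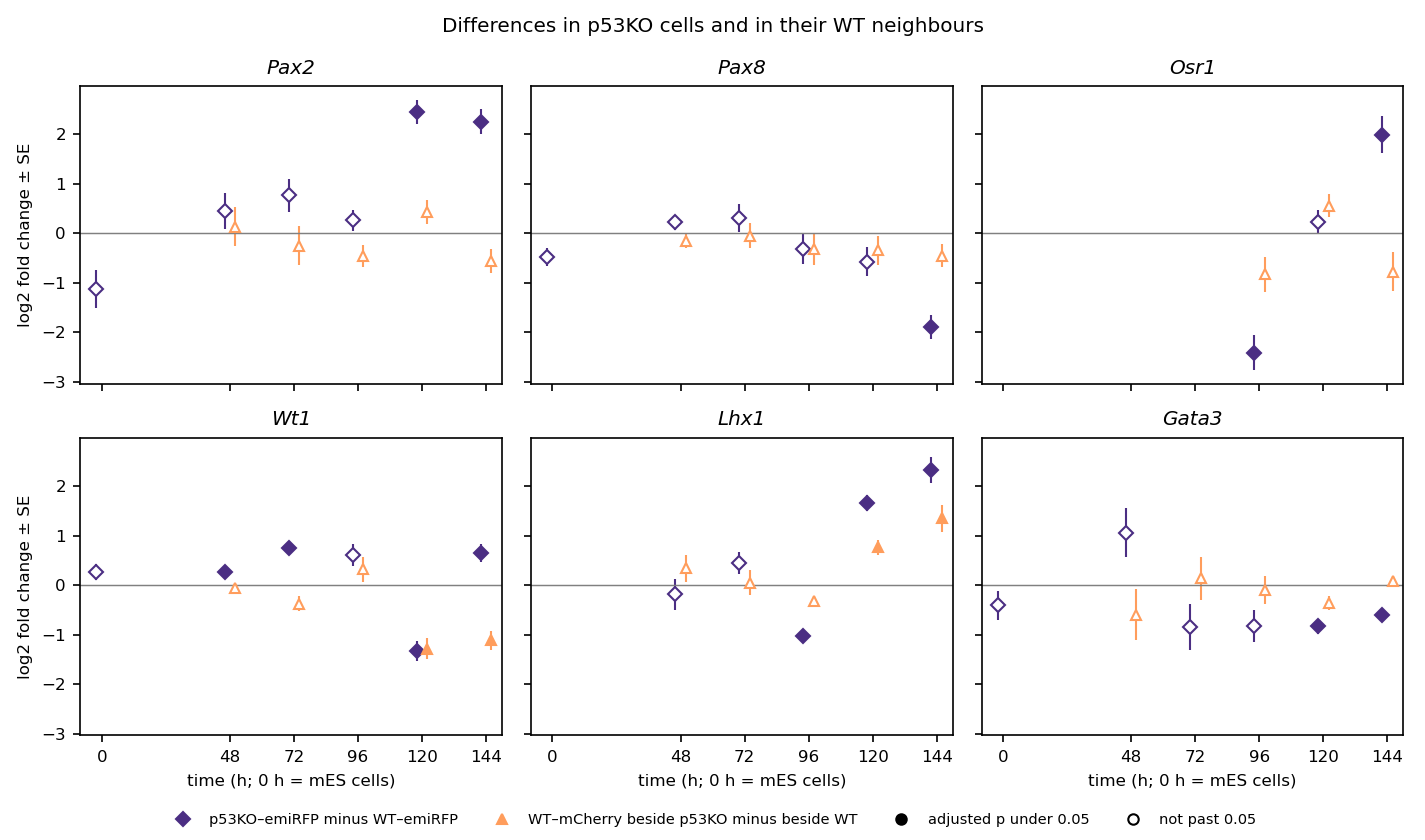
Log2 fold changes (vertical axis, bars ± SE, 3 against 3 libraries) at each time point in hours for the 6 factors, p53KO–emiRFP minus WT–emiRFP as diamonds and WT–mCherry beside p53KO minus WT–mCherry beside WT cells as triangles, filled where the adjusted p is under 0.05. Pax2 and Lhx1 are above 0 in p53KO–emiRFP cells at 120 and 144 h, Wt1 is below 0 in both populations at 120 h, and Lhx1 is above 0 in both at 120 and 144 h.

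Whether these differences changed with time was tested directly, as the change of the p53KO–emiRFP against WT–emiRFP log2 fold change between consecutive time points. From 48 to 72 h 0 of 6 factors passed beside 1.76% of all genes, with 2 (Wt1 and Gata3) at an unadjusted p under 0.05 and 0 by DESeq2. From 72 to 96 h 1 factor passed, Lhx1 (-1.48 ± 0.27, adjusted p = 7.1e-05), beside 11.0%. The change of Osr1, which was at 0 to 3 reads at 72 h, had an adjusted p of 0.052 and was called by DESeq2. From 96 to 120 h 4 factors passed beside 30.8%: the differences of Pax2, Osr1 and Lhx1 moved up by 2.20 ± 0.34, 2.65 ± 0.46 and 2.69 ± 0.23, and that of Wt1 moved by -1.93 ± 0.28 (highest adjusted p = 8.4e-06). From 120 to 144 h 3 factors passed beside 16.9%, Osr1 (1.76 ± 0.48), Wt1 (1.98 ± 0.24) and Pax8 (-1.32 ± 0.36), with adjusted p = 0.0061, 6.5e-09 and 0.0059. That of Osr1 did not pass without replicate 1 (adjusted p = 0.19) and that of Pax8 without replicate 2 (adjusted p = 0.13). That of Lhx1 passed with the replicate block (0.67 ± 0.27, adjusted p = 0.085, with the block 0.041), in a fit that called 22.0% of all genes, and with no low-count filter (adjusted p = 0.014). The change of the Gata3 difference did not pass at any of these steps, with -1.91, 0.02, -0.0044 and 0.22 on the log2 scale (lowest adjusted p = 0.16, from 48 to 72 h).

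The WT–mCherry cells sorted from the 2 mosaics were compared to ask how WT cells differed beside p53KO neighbours. The mosaics also differed in the number of partner cells seeded, 25 p53KO–emiRFP against 150 WT–emiRFP. That number cannot be told apart from the genotype of the partner. Lhx1 was higher and Wt1 lower in WT–mCherry cells beside p53KO cells at 120 and 144 h, and no other factor passed. Lhx1 was at 562, 703 and 611 normalized counts beside p53KO and 407, 410.3 and 289 beside WT cells at 120 h (0.77 ± 0.16, adjusted p = 0.012). At 144 h it was at 113, 96.6 and 76.8 against 42.5, 37.3 and 31.9 (1.35 ± 0.27, adjusted p = 0.0033). The groups did not overlap at either time. With 2 replicates the 120 h difference did not pass whichever was left out (adjusted p = 0.08, 0.059 and 0.065), and that of 144 h did not pass without replicate 1 (adjusted p = 0.051).

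Wt1 was at 118, 106 and 122 normalized counts beside p53KO and 239, 219 and 379 beside WT cells at 120 h (-1.28 ± 0.21, adjusted p = 0.0028, without replicate 1 0.091). At 144 h it was at 229, 146 and 231 against 413, 370.4 and 539.9 (-1.12 ± 0.19, adjusted p = 0.0011). At 120 h the WT neighbours and the p53KO–emiRFP cells of the same gastruloids were thus both low in Wt1. At 144 h the neighbours held the lowest and the p53KO–emiRFP cells the highest mean of the 4 populations (202 ± 48.5 and 516 ± 92.8, SD, n = 3), and the difference between the 2 effects was not tested. The p53KO–emiRFP libraries overlapped the WT–mCherry libraries beside WT cells at that time.

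Of the factors tested beside p53KO cells, 0 of 5 passed at 48 h, 0 of 5 at 72 h, 0 of 6 at 96 h, and 2 of 6 at 120 and at 144 h, where 0.0736%, 0.559%, 3.92%, 5.94% and 25.6% of all genes passed. DESeq2 called 0 at the first 3 times, and 0, 1 (Wt1) and 2 (Lhx1 and Osr1) factors had an unadjusted p under 0.05. At 96 h 3 factors passed with the replicate block, all lower beside p53KO cells: Lhx1 (1354, 1539.8 and 1455 against 1758, 1770.4 and 1929, -0.33 ± 0.11, adjusted p = 0.12, with the block 0.003), Pax2 (-0.45 ± 0.23, 0.29, with the block 0.0085) and Osr1 (-0.82 ± 0.35, 0.21, with the block 0.043). In that fit 20.8% of all genes passed. Lhx1 and Osr1 also passed with no low-count filter (adjusted p = 0.00036 and 0.036), and Lhx1 with the compared groups alone in the fit (0.047).

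The share of emiRFP RNA in the sorted WT–mCherry libraries was estimated from H2bc14, a histone gene with far higher counts in emiRFP than in mCherry libraries. By this estimate 2.91% to 7.35% of the RNA in the WT–mCherry libraries beside p53KO cells at 120 h and 2.26% to 16.8% at 144 h was emiRFP RNA, against at most 2.01% beside WT cells. With that share subtracted, the Lhx1 differences were 0.70 at 120 h and 1.13 at 144 h (adjusted p = 0.023 and 0.0065). Read from H2bc21 the share was 8.25% to 25.0% at 120 h and 2.73% to 19.6% at 144 h, against at most 6.82% beside WT cells. With it subtracted, the Lhx1 differences were 0.54, which did not pass (adjusted p = 0.1), and 1.00 (adjusted p = 0.022). The Wt1 differences became larger in size, -1.29 and -1.41 by H2bc14. Pax2, at 46.0, 34.4 and 36.4 against 50.4, 55.9 and 67.0 normalized counts at 144 h, passed only after subtraction (-0.56 ± 0.25, adjusted p = 0.11, after subtraction -0.96, adjusted p = 0.011).

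The 2 WT clones, compared within the same WT + WT gastruloids or as mES cells, show what the factors do without a difference in p53. This comparison shares its WT–emiRFP libraries with the genotype comparison and its WT–mCherry libraries with the neighbour comparison. Of the factors tested, 1 of 4 passed at 0 h, 1 of 5 at 48 h, 0 of 5 at 72 h, 0 of 6 at 96 h, 0 of 6 at 120 h and 1 of 6 at 144 h, beside 11.1%, 8.90%, 7.64%, 2.15%, 1.22% and 23.8% of all genes. Pax8 was lower in WT–emiRFP cells at 0 h, 101, 87.8 and 99.7 against 143, 165 and 147 normalized counts (-0.66 ± 0.17, adjusted p = 0.029), and at 48 h, 129.6, 110.5 and 104 against 188, 209 and 151 (-0.67 ± 0.15, adjusted p = 0.01). Pax2 was lower in WT–emiRFP cells at 144 h, 35.4, 27.2 and 17.4 against 50.4, 55.9 and 67.0 (-1.11 ± 0.26, adjusted p = 0.0078). Each of these 3 calls was lost when either of 2 replicates was left out (adjusted p from 0.06 to 0.42).

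The WT–emiRFP level of Pax2 at 144 h was thus the lower of the 2 WT levels, and the p53KO–emiRFP libraries of that time were also above all WT–mCherry libraries. At the times with 0 calls between the clones, 2 factors (Pax8 and Lhx1) at 72 h, 2 (Lhx1 and Osr1) at 96 h and 0 at 120 h had an unadjusted p under 0.05, and DESeq2 called Lhx1 at 72 and at 96 h and 0 factors at 120 h. With the replicate block the calls over all times went from 3 to 9, while the shares of all genes went to 17.3%, 28.9%, 16.2%, 15.9%, 10.8% and 33.9%. The 6 gained were Gata3 at 0 h (adjusted p = 0.044), Lhx1 at 72 and 96 h (0.02 and 0.00059), Osr1 at 96 and 144 h (0.018 and 0.0495) and Wt1 at 144 h (0.0085). At 96 h Lhx1 was 2341, 2595 and 2247 in WT–emiRFP and 1758, 1770.4 and 1929 in WT–mCherry libraries, so the clones did not overlap although both were WT.

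The other genes of the nephric programme were described from a list of 26, among them the homeobox gene Six2, Eya1, Ret and its ligand Gdnf, and the Foxc pair. In p53KO–emiRFP against WT–emiRFP cells 4 of 20 tested passed at 0 h (1 higher), 8 of 18 at 48 h (3 higher), 9 of 20 at 72 h (3 higher), 11 of 21 at 96 h (1 higher), 11 of 23 at 120 h (7 higher) and 15 of 25 at 144 h (14 higher). These counts stand beside the 6.14%, 22.1%, 29.1%, 23.3%, 51.0% and 65.4% of all genes, so the share of the list was above that of all genes from 0 to 96 h and below it at 120 and 144 h, as a description with no test. Their median log2 fold change was -0.39 at 96 h, 0.03 at 120 h and 0.74 at 144 h, where the median of all genes tested was -0.01, 0.05 and 0.01. The median of the list thus had the direction of Osr1 at 96 and at 144 h. Beside p53KO cells, WT–mCherry cells had 0 of 18, 0 of 20, 1 of 21, 3 of 23 and 12 of 25 list genes passing from 48 to 144 h, with 8 of the 12 lower, where the shares of all genes were 0.0736%, 0.559%, 3.92%, 5.94% and 25.6%, so the share of the list was the higher from 96 h on.

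Highest against WT–emiRFP cells at 120 h among these genes were Cited1, a cofactor made in nephron progenitors (2342 ± 195.5 against 553 ± 49.7 normalized counts, 2.08 ± 0.12, adjusted p = 6.5e-09), and the forkhead factors Foxc1 (4613 ± 940.0 against 2198 ± 376, 1.07 ± 0.17, adjusted p = 0.00012) and Foxc2 (1.01 ± 0.16, adjusted p = 0.00013). Foxc1 and Foxc2 are also factors of the paraxial mesoderm. Lowest were Gfra1, a GDNF co-receptor (-0.93 ± 0.19, adjusted p = 0.00079), Npnt, a matrix protein of the nephric duct (-0.63 ± 0.11, adjusted p = 0.00031), and the nephron progenitor factor Six2 (-0.55 ± 0.19, adjusted p = 0.028). At 144 h Hoxa11 (100.1 ± 29.4 against 4.01 ± 1.78 normalized counts, 4.58 ± 0.43, adjusted p = 5.2e-07), Foxc2 (3483.5 ± 318 against 181 ± 63.1, 4.27 ± 0.29) and Foxc1 (3.32 ± 0.22) were highest against WT–emiRFP cells, and Npnt was the 1 gene that was lower (622 ± 78.1 against 1161 ± 62.2, -0.90 ± 0.10, adjusted p = 3.6e-06).

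Because the 6 factors are shared with other tissues, markers of those tissues are given beside the differences. Their part in the results was not tested, and the counts of markers stand beside 23.3%, 51.0% and 65.4% of all genes called in p53KO–emiRFP against WT–emiRFP cells at 96, 120 and 144 h. Beside the higher Pax2 and Lhx1 at 120 h, 5 of 10 paraxial mesoderm markers were also higher in p53KO–emiRFP cells and 1 lower, and the sum of the list ranged from 48609 to 61722 normalized counts against 15859 to 21564. Of 8 spinal interneuron markers, 3 (Gad1, Lhx5 and Evx1) were higher and 1 lower, with sums of 2244 to 2706 against 709 to 737. Of 5 midbrain–hindbrain markers, 4 were tested and 2 (Gbx2 and En2) were higher, with sums of 2639 to 2981 against 1407 to 1503. Both lists summed higher at 96 h, so a high sum alone does not show the tissue. At that time the interneuron sums were 6131 to 7400 in p53KO–emiRFP and 3727 to 4311 in WT–emiRFP cells. The midbrain–hindbrain sums were 4924 to 5227 and 5254 to 5637. At 144 h all 10 paraxial markers were higher, with sums of 29654 to 38805.5 against 5398 to 7189, and the interneuron list had 2 higher and 4 lower, although its sums were 909 to 928 against 574 to 603. The midbrain–hindbrain list had 1 higher (Gbx2) and 1 lower (Wnt1) of 5 tested at 144 h, with sums of 1477 to 1774 against 544 to 615. No marker of these 3 lists was at 0 in every library of these groups at 120 or 144 h.

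Beside the lower Gata3 at 120 and 144 h, 3 and 4 of 6 trophoblast markers were below their WT–emiRFP level and none above, with sums of 1515 to 1712 against 6710.5 to 7571 at 120 h and 1715 to 2267.5 against 8265 to 9089 at 144 h. The placental genes Tpbpa and Prl3d1 of this list were at 0 in all of these libraries, and the counts of the list came from Tfap2c, Elf5, Krt7 and Ascl2. Of 9 surface ectoderm markers, 4 were lower and 2 higher at 120 h, and 5 lower and 2 higher at 144 h. Their sums were 9898 to 10406 against 13000 to 15706 at 120 h and 7749 to 10603 against 16334 to 19559 at 144 h. Of 5 otic markers, which bear on Gata3, Pax2 and Pax8, 2 were lower and 1 (Sox9) higher at 120 h, with sums of 889 to 1097 against 595 to 773. At 144 h 3 were lower and Sox9 again higher, with sums of 1277 to 1476 against 1057 to 1341 and overlapping ranges. Sox9 made up much of these sums, with means of 944 ± 65.0 against 536 ± 65.1 at 144 h (SD, n = 3). Beside the lower Wt1 at 120 h, 4 of 6 coelomic and gonadal markers were tested and 2, Lrrn4 and Tbx18, were lower, with sums of 739.8 to 892 against 1465 to 1525. At 144 h, when Wt1 was higher, Tbx18 was higher and Lrrn4 and Msln were lower, with sums of 759.7 to 849.7 against 1398 to 1553. Beside the lower Lhx1 and Osr1 at 96 h, 5 of 9 paraxial markers tested were lower and none higher, 3 of 9 anterior mesendoderm and node markers were higher and 2 lower, and of 9 lateral plate markers tested 1 (Hand1) was higher and 1 (Foxf1) lower. The paraxial sums were 22404 to 30689 against 36983 to 47591, and those of mesendoderm and node 3500 to 4654 against 2004 to 2852. The lateral plate sums overlapped, 947 to 1044 against 923 to 1123.

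In the WT–mCherry neighbours at 120 h, 5 of 10 paraxial markers were higher and 1 lower, with sums of 31282 to 39099.9 against 19597 to 26736 normalized counts. Of the 8 interneuron markers 2 (Gad1 and Evx1) were higher, with sums of 1298 to 1628 against 651 to 806, and of the coelomic list Lrrn4 was lower, with sums of 898 to 1031.5 against 1340.3 to 1535. At 144 h 4 paraxial markers were higher and 2 lower, with sums of 6799 to 12708 against 9906 to 13998, and of 10 blood and endothelial markers 4 were lower and none higher. The interneuron sums overlapped at that time, 642 to 727 against 613 to 702. Of the coelomic list Lrrn4 and Tbx18 were lower and Lhx9 higher, with sums of 846 to 1044 against 1204 to 1274, so its sums were lower without overlap beside the lower Wt1 at both times. The blood and endothelial sums overlapped at 144 h, 6769.6 to 7387 against 6642 to 7206. At 120 h the sums of that list were lower beside p53KO cells without overlap, 4608 to 5134 against 5212 to 5966. In p53KO–emiRFP cells that list had 6 lower and 1 higher at 120 h, with sums of 3470.2 to 3769.8 against 7223 to 7432, and 5 lower and 1 higher at 144 h, with sums of 2645 to 3238 against 8602 to 8874. The counts in the neighbours stand beside 5.94% and 25.6% of all genes called at 120 and 144 h. The direction of the paraxial list in the neighbours was thus that of Lhx1 at 120 h, while at 144 h its mean sum was lower and Lhx1 higher, and its part in the Lhx1 difference was not tested.

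Among themselves the 6 factors fell into groups over the 23 group means, as Pearson's r of log2(mean + 1), a description over groups that share libraries of the same time points. Pax2 and Osr1 (0.87), Pax2 and Lhx1 (0.84) and Osr1 and Lhx1 (0.83) ran together, and Pax8 and Wt1 did (0.77). The lowest values were those of Pax8 and Lhx1 (-0.73) and of Wt1 and Lhx1 (-0.63). Gata3 stood apart, between -0.09 with Wt1 and 0.45 with Osr1. The paralogues Pax2 and Pax8 had r = -0.45.

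Of 15935 genes with a group mean of at least 50 normalized counts, those most like each factor by the same measure were as follows. For Lhx1 they were Rftn1 (0.98), Arid3b (0.98), the Wnt enhancer Rspo3 (0.97), Lhx1os (0.97) and Rflna (0.97). For Osr1 they were Rasgrp3 (0.98), Gm14066 (0.97), Pcsk5 (0.97), Hoxd3 (0.97) and Kif26b (0.97). For Pax2 they were Fundc1 (0.96), Zfp663 (0.95), Tmem151b (0.94), Tril (0.94) and Clmp (0.94). The genes most like Wt1 were Wt1os (0.96), Ptprf (0.96), Car4 (0.95), Miat (0.94) and Map1b (0.93), those most like Pax8 Kdm6a (0.96), Rsbn1l (0.95), Ston2 (0.95), Dync1li1 (0.95) and Fgd1 (0.95), and those most like Gata3 Fndc3b (0.98), Gys1 (0.97), Stra8 (0.97), Brwd1 (0.96) and Ak4 (0.96). None of the 6 was among the top 5 of another.

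Over group means the divergent neighbours were among the top 5 of both Lhx1 and Wt1. Over the 69 libraries Wt1os stayed in the top 5 of Wt1, and Lhx1os was not in that of Lhx1. Lhx1os, which shares the region in capitals in the Lhx1 window above, peaked with Lhx1 at 96 h in WT cells. At that time it was at 164 ± 9.02 normalized counts in WT–emiRFP and 90.1 ± 29.2 in p53KO–emiRFP cells (SD, n = 3). At 120 h it was at 43.5 ± 3.22 and 116 ± 8.74, and at 144 h at 3.82 ± 1.08 and 46.4 ± 2.39. The partner was thus the lower in p53KO–emiRFP cells at 96 h and the higher at 120 and 144 h, as was Lhx1. In p53KO–emiRFP cells its mean was thus higher at 120 h than at 96 h, while that of Lhx1 was 1172 ± 257 and 1094 ± 109. Its mean was 6.82% to 20.5% of the Lhx1 mean from 96 h on. Wt1os peaked at 48 h with Wt1, at 60.3 ± 4.87 in WT–emiRFP and 73.7 ± 6.63 in p53KO–emiRFP cells, and was at 2.43% to 8.31% of the Wt1 mean over the 23 groups. Neither partner overlaps its factor in the annotation.

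**Figure D4:**
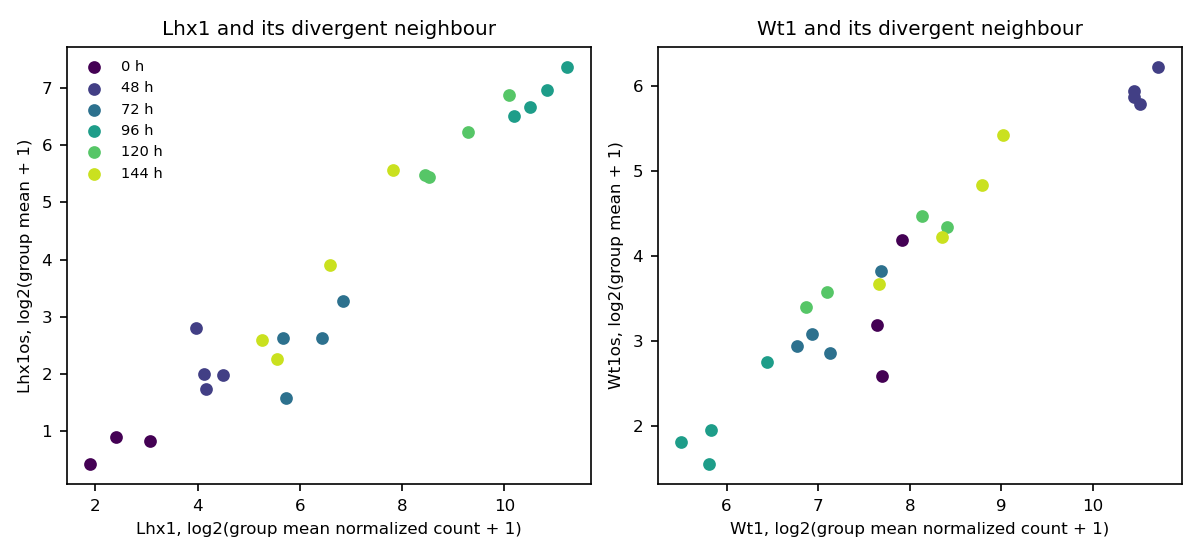
Group means of the divergent non-coding partner (vertical axis) against those of the factor (horizontal axis), both as log2(group mean normalized count + 1), for Lhx1 with Lhx1os on the left and Wt1 with Wt1os on the right, 1 point per group of 3 libraries, coloured by time. The 4 points at 96 h lie furthest right for Lhx1, with the p53KO–emiRFP point of 120 h above 2 of them for Lhx1os, and the 4 points at 48 h lie furthest right and highest for Wt1 (r = 0.97 and 0.96 over 23 groups).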

How the data were processed

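RNA was measured in 69 poly-A libraries, from sorted gastruloid cells and, at 0 h, mES cells not labelled as sorted. The deposited values are raw counts of uniquely mapped reads per gene symbol, which the authors made with Trim Galore 0.6.7 and STAR 2.7.11b on GRCm38.p6 (tools from the submitters' processing notes) with a Gencode annotation. The strand column used is not given in the sources used here. Counts were divided by median-of-ratios size factors over all 69 libraries. The main test was edgeR's quasi-likelihood test (edgeR 4.0.16, R 4.3.3) with these factors, filterByExpr, Benjamini-Hochberg adjustment over all genes tested and a threshold of 0.05. It was fitted per time point on all its libraries for differences between populations, and on the 69 libraries for time steps, where WT is the mean of the WT groups. SE was derived from the log2 fold change and its F statistic. The edgeR fit per time point was tested on simulated counts for the 120 h libraries. The other fits and the correlations were not tested in this way. Levels between genes were compared per kb of summed exon length.

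Named were the 6 members throughout, of the other nephric genes the up to 3 largest called rises and falls at 120 and 144 h, for each member the 5 genes most like it, markers that define a tissue, Trp53 and H2bc14. The members and lists were chosen with earlier results of these data known. Replicates are, per the study's methods, experiments separated in time. The labels do not say that equal numbers in different groups mark the same experiment. Same-numbered libraries deviated together, with correlations over 14078 genes of 0.0377 to 0.688 (median 0.321, over 0.1 in 93 of 99 pairs). The numbers were therefore taken as pairs, an assumption on which the block and the emiRFP subtraction rest. A fit with the number as a block is given where it changes a call. The share of emiRFP RNA in WT–mCherry libraries was estimated from H2bc14 or H2bc21 relative to the emiRFP library of the same mosaic, time and number, and subtracted as an alternative. Also tried were DESeq2 1.42.0, TMM normalization, all genes with a count, other sets of libraries in the fit, and each replicate left out. Intervals for a count of 0 cover counting error only.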

Additional observations from a re-analysis of the deposited data

Results flagged for a closer look

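A set of 8 values drew a closer look because the difference between p53KO–emiRFP and WT–emiRFP cells changed between consecutive time points, by the interaction contrast of edgeR's fit over 69 libraries. From 72 to 96 h the Lhx1 difference changed by -1.48 on the log2 scale. It was below 0 at 96 h, while the 72 h difference (0.44 ± 0.22) had not passed. From 96 to 120 h the differences of Pax2, Osr1 and Lhx1 changed by 2.20, 2.65 and 2.69, and that of Wt1 by -1.93. From 120 to 144 h those of Osr1 and Wt1 changed by 1.76 and 1.98, and that of Pax8 by -1.32. The adjusted p-values ranged from 3.3e-14 to 0.0061. In each of these changes the seeding number and the partner cells differ with genotype at both times, which cannot be told apart from it.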

How the results depend on the processing

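With the replicate block (a pairing by replicate number, which the labels do not tie to an experiment), 7 rather than 4 of the calls beside p53KO cells passed, and 9 rather than 3 between the WT clones. The block raised the calls over all genes too, at 96 h to 20.8% and 15.9% from 3.92% and 2.15%. The latter count was also 7 without a low-count filter and 5 by DESeq2 and with all 69 libraries in the fit. Leaving out each replicate in turn gave 1 to 3 calls for both comparisons, with 1 beside p53KO cells without replicate 1, and 1 between the clones without replicate 2 and without replicate 3. The causes were not tested, beyond the fewer libraries in these fits. For p53KO–emiRFP against WT–emiRFP cells the 14 calls became 12 to 14 with a replicate left out, 15 without the filter and 18 with the block, and the time-step counts of 25 and 21 became 23 to 25 and 18 to 20. The block added 14 calls and removed none. Of 737 alternative values for 93 single results 0 changed direction, 29 lost and 38 gained the call. Only results called in the main or an alternative fit are among the 93, so differences never called are left out. Of 138 group levels, 9 moved by more than 1 SD when scaled to library totals. Over the 69 libraries in place of group means, 1 of the 5 genes most like Pax2 and 1 of those most like Pax8 were shared. Low reads limit Osr1 up to 72 h and Lhx1 at 0 h.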
